A study of Homo sapiens with 4 samples.

Results

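Fibroblast growth factors (FGFs) are secreted or cell-associated ligands that bind FGF receptor tyrosine kinases together with heparan sulfate. The 9 genes described here are the 4 receptor genes FGFR1, FGFR2, FGFR3 and FGFR4 and the 5 ligand genes FGF1, FGF2, FGF5, FGF7 and FGF10. In skin, fibroblasts of the dermis make ligands such as FGF7 and FGF10, which act on the epithelial splice form of FGFR2 on keratinocytes, whereas dermal fibroblasts themselves carry mainly FGFR1. FGFR2 and FGFR3 are known as targets of the transcription factor p63 in epithelial cells.

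Chromatin accessibility near these genes was measured by ATAC-seq, an assay based on a transposase that inserts adapters into open DNA, in BJ human dermal fibroblasts, an established cell line. The cells carried the doxycycline transactivator on a lentivirus and, on a retrovirus under a doxycycline-responsive promoter, either KLF4 alone (labelled empty, called CTR here) or ΔNp63α together with KLF4 (called p63 here). KLF4 and the doxycycline treatment, given for 3 days in the study's methods, were thus common to both groups. The groups differed in ΔNp63α, in the construct that carried KLF4 and in the transduced line, which cannot be told apart. Whether the amount of KLF4 was equal was not tested. Each group had 2 samples, which were repeated inductions of the same polyclonal line, and the authors deposited 1 peak list for each group, so no value for a single sample and no spread between samples could be given.

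A deposited peak was assigned to a gene when its summit, the position of highest coverage, fell inside the gene or no more than 50 kb from one of its transcription start sites (TSSs). In the CTR list 70 of 101142 peaks on chromosomes 1 to 22, X and Y met this rule, and in the p63 list 77 of 109486 did. A peak whose −log10 q reached 10, the threshold of the study, is called an open region. These were 42 of 56680 for CTR and 44 of 62343 for p63. The fold enrichment of a peak is its summit coverage over the local background, as given by the peak caller, and the pileup is the number of reads at the summit, solved here from the fold enrichment and the −log10 p. The background was 1.18 reads for CTR and 1.13 reads for p63, and the median pileup of open regions was 33 reads in both. An open region without an overlapping open region of the other list is called CTR-only or p63-only, and the rest are called shared.

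The labelled cell type was checked against marker genes with an open region within 1 kb of a TSS. Of 14 fibroblast markers, 12 had such a region in both lists (COL3A1 and PDGFRA did not), and of 14 keratinocyte markers 3 did in both lists (KRT15, CDH1 and DSP). Regions were also found at 2 of 6 melanocyte markers in both lists, at none of 5 endothelial markers in either list, and at 3 of 4 immune markers in the CTR list against 1 of 4 in the p63 list. Peaks wholly inside exon 4 (fold enrichment 14.6) and exon 14 (fold enrichment 7.99) of TP63 were found in the p63 list alone, and a peak inside exon 3 of KLF4 was present in both lists, with a fold enrichment of 6.07 in CTR and 8.37 in p63. Whether the reads of these exon peaks came from the introduced constructs or from the cells' own TP63 and KLF4 genes was not tested.

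At FGFR2 the only open regions were 2 p63-only regions upstream of the gene, whereas at FGF7 the only open region was the CTR-only region over its start site. FGFR2, the receptor of FGF7 in its epithelial form, had no open region in the CTR list, and FGF7 had none in the p63 list. Weaker peaks were present, 5 in the CTR list at FGFR2 and 2 in the p63 list at FGF7. The strongest of them, at FGF7, had a −log10 q of 9.49, close to the threshold. The intervals of the pileup ratio, p63 over CTR, covered 1 for the FGF7 region (0.144 to 1.04) and for 1 of the FGFR2 regions (0.788 to 4.36). Among 20033 protein-coding genes examined by the same rule, 1.84% had an open region in the p63 list and none in the CTR list, as FGFR2 did, and 0.854% had the reverse, as FGF7 did. These shares are over genes with any number of regions, and genes with as few regions as FGFR2 and FGF7 were not counted apart. FGF10 had no deposited peak of any strength in either list, which was the case for 4.11% of protein-coding genes. The other 6 genes had between 3 and 12 open regions in each list, most of them shared.

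The DNA under some of the regions of 1 list is given first. The lines below hold 201 bases of GRCh38, plus strand, centred on the summit of 5 of the p63-only and CTR-only regions, those of FGFR2, the FGF1 regions with no peak in the other list and the FGF2 region with the lowest pileup ratio, and the 250 bases before the FGF7 TSS from RefSeq (GRCh38.p14). Capitals mark matches to the p53/p63 family site, to AP-1 (TGACTCA or TGAGTCA) and to the KLF motif (GGGCGGGGC, GGGCGTGGC, GGGTGGGGC or GGGTGTGGC), each on either strand. The family site has 20 positions with 4 fixed and, at the other 16, up to 3 mismatches were allowed in counts and up to 4 in the lines below. These windows were chosen after their values were seen.
FGFR2, p63-only, chr10:121611054-121611254: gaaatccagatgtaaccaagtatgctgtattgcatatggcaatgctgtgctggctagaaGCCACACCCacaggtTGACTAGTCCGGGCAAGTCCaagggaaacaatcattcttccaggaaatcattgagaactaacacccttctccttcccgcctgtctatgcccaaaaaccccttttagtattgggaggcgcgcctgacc
FGFR2, p63-only, chr10:121627953-121628153: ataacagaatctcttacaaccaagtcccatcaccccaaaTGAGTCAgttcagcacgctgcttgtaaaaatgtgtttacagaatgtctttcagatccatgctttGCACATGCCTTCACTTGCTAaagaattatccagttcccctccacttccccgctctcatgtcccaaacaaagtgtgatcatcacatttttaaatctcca
FGF1, p63-only, chr5:142667815-142668015: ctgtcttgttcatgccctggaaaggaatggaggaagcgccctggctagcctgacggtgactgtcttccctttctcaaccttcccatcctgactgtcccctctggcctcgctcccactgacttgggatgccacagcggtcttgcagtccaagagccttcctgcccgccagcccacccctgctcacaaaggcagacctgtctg
FGF1, CTR-only, chr5:142666352-142666552: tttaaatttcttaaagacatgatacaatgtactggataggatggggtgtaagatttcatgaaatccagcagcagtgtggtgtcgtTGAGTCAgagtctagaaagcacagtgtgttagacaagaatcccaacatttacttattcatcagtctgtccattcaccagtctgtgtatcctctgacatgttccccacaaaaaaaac
FGF2, CTR-only, chr4:122837142-122837342: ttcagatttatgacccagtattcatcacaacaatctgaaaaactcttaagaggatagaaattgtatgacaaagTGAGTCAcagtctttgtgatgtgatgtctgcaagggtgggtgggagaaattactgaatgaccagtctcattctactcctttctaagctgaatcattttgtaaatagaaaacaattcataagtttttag
FGF7, promoter, chr15:49422992-49423241: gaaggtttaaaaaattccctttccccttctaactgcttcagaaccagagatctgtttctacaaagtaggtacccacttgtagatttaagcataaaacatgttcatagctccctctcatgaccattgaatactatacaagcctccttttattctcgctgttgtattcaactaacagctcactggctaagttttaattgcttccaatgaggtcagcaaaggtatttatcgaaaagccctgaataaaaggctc

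Across the 9 genes the count of regions that differed between the lists was close to that of the whole lists. Of the 44 open regions in the p63 list, 10 were p63-only (22.7%, 95% Wilson interval 12.8 to 37.0), against 23.9% of all regions of that list. Of the 42 open regions in the CTR list, 8 were CTR-only (19.0%, interval 9.98 to 33.3), against 16.5% of all. Only 3 of the p63-only regions and 1 of the CTR-only regions had no peak of any strength in the other list, which is 6.82% and 2.38% of the open regions against 12.0% and 3.29% in the whole lists. The remaining 7 in each list overlapped a peak of the other list that lay below the threshold. With equal numbers of top-ranked peaks in both lists the order turned, with 6 p63-only regions of 40 and 8 CTR-only regions of 42, against 20.7% of all regions in either list. The receptors had 5 p63-only regions of 20 and 3 CTR-only regions of 18, and the ligands 5 of 24 in each list. At least 1 p63-only region was found at 5 of the 9 genes (58.2% of protein-coding genes) and at least 1 CTR-only region at 5 of the 9 (41.9%). Intervals on shares and pileups cover counting error only, and reads are not all independent molecules.

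**Figure D1:**
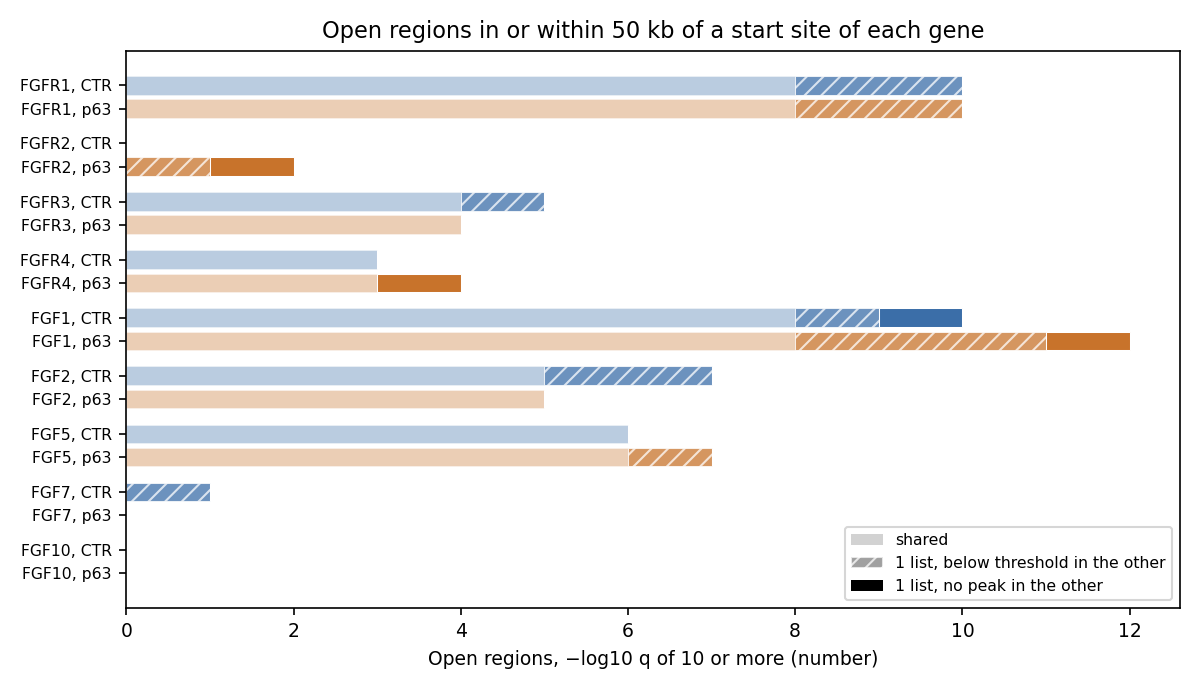
Number of open regions (x axis, −log10 q of at least 10) in or within 50 kb of a TSS of each gene (y axis) in the CTR and p63 lists, split into shared regions (pale), regions of 1 list with a weaker peak in the other (hatched) and regions of 1 list with no peak in the other (full colour). FGFR2 has 2 regions in the p63 list and none in CTR, FGF7 has 1 in CTR and none in p63, and FGF10 has none.

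The rule also took in regions that lie nearer to other genes. In both lists 14 open regions had their nearest protein-coding TSS in a neighbour, such as LETM2 and NSD3 beside FGFR1, TACC3 and LETM1 beside FGFR3, NSD1 beside FGFR4 and CFAP299 beside FGF5. Among the regions whose nearest protein-coding TSS was that of the FGF or FGFR gene itself, 8 of 30 were p63-only and 6 of 28 were CTR-only.

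FGFR1 (ENSG00000077782.23, chr8:38400215-38468834, minus strand) encodes the main FGF receptor of mesenchymal cells and had 10 open regions in each list, of which 8 were shared. The region over its canonical TSS, chr8:38468204-38468728, was CTR-only, with a fold enrichment of 5.14 in CTR at a −log10 q of 15.7. The p63 list held a weaker peak there, with a fold enrichment of 3.98 at a −log10 q of 8.76. The pileups were 41 reads in CTR and 30 reads in p63, a ratio of 0.732 with an exact interval of 0.441 to 1.20. The difference in reads was thus within counting error, although the peaks fell on opposite sides of the threshold. The open region nearest a TSS of FGFR1 in the p63 list was shared and lay at chr8:38401437-38401953, 9 bp from the start of a short transcript, with a fold enrichment of 6.65 against 5.81 in CTR. In intron 1, the shared region 9.28 kb into the gene had a fold enrichment of 9.21 in CTR and 11.5 in p63, and the region 3.16 kb into the gene had 6.70 in CTR and 8.06 in p63. The shared region 22.5 kb into the gene went the other way, with 10.2 in CTR and 8.37 in p63 and pileups of 29 and 22 reads, as did chr8:38408874-38409120, nearest to LETM2, with 6.41 in CTR and 5.47 in p63.

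The highest −log10 q near FGFR1 belonged in CTR to chr8:38386107-38387089 (41.2), at the start of LETM2, and in p63 to the intron 1 region chr8:38465130-38466345 (34.7). Of the p63-only regions, chr8:38488538-38488879 lay 20.04 kb upstream of the canonical TSS, held a KLF motif, and had a fold enrichment of 7.58 against 5.05 in CTR, with pileups of 16 and 10 reads. The other p63-only region, chr8:38385081-38385455 (fold enrichment 3.88 against 2.49), and the second CTR-only region, chr8:38397474-38397894 (6.91 in CTR against 5.02), were nearest to LETM2.

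FGFR2 (ENSG00000066468.24, chr10:121478332-121598458, minus strand) encodes the receptor whose epithelial splice form binds FGF7 and FGF10. No peak of either list lay within 1 kb of its canonical TSS. The gene body held no open region, and its 2 peaks, both from the CTR list and in introns 9 and 13, were weak, with fold enrichments of 3.67 and 5.05. The p63-only region chr10:121611080-121611287, 12.7 kb upstream of the canonical TSS, had a fold enrichment of 7.45, a −log10 q of 11.8 and a pileup of 18 reads. The CTR list had no peak there, and the weakest peak deposited in that list had a pileup of 6 reads. The centre of a p63 site with 1 mismatch lay 16 bp from the summit of this region, at chr10:121611128-121611147, and a KLF motif stood beside it, as the first of the printed windows shows. Among the 1698 p63-only regions of the whole list with a p63 site, 217 (12.8%) had a site with at most 1 mismatch.

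The second p63-only region of FGFR2, chr10:121627739-121628167, lay 29.6 kb upstream, with a fold enrichment of 7.39, a −log10 q of 11.7 and a pileup of 18 reads. A CTR peak below the threshold overlapped it, with a fold enrichment of 5.05, a −log10 q of 5.19 and a pileup of 10 reads. The ratio of the pileups was 1.80 with an interval of 0.788 to 4.36, so the difference in reads was within counting error. This region held an AP-1 motif and a looser match to the p63 site with 4 mismatches, which is outside the limit used for the counts. Both FGFR2 regions ranked low among the open regions of the p63 list by −log10 q, above 9.42% and 9.10% of them.

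FGFR3 (ENSG00000068078.20, chr4:1793293-1808872, plus strand) encodes a receptor of epithelia and cartilage and had 5 open regions in CTR and 4 in p63, the latter all shared. None of them lay in the gene body. A CTR peak below the threshold covered the FGFR3 TSS, chr4:1793227-1793684, with a fold enrichment of 4.32 at a −log10 q of 4.35, and the p63 list had no peak within 1 kb of it. The strongest region in both lists was chr4:1842719-1843480, at the start of LETM1, with fold enrichments of 12.5 in CTR and 13.2 in p63. The shared region 15.3 kb upstream of FGFR3 held a KLF motif and had a fold enrichment of 6.01 in CTR and 6.97 in p63, with pileups of 24 and 39 reads (ratio 1.63, interval 0.953 to 2.82). The shared region just past the end of FGFR3, chr4:1809874-1810461, went the other way, with 9.68 in CTR and 7.77 in p63 and pileups of 35 and 26 reads (ratio 0.743, interval 0.429 to 1.27), and the region chr4:1746078-1746615, nearest to TACC3, had 6.98 in CTR and 6.06 in p63. The CTR-only region chr4:1748618-1748915 was intergenic, with its nearest protein-coding TSS that of TACC3, and differed little, with fold enrichments of 5.25 in CTR and 4.89 in p63.

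Below the threshold FGFR3 had 8 peaks in the p63 list and 2 in the CTR list. Of the 8, 6 overlapped no CTR peak, and 5 of these lay upstream of the gene. Such peaks were common near all the genes described here. Among peaks below the threshold, 19 of 33 in the p63 list overlapped no CTR peak, and 13 of 28 in the CTR list overlapped no p63 peak. At FGFR2 the latter held for 3 of the 5 CTR peaks below the threshold. Whether FGFR3 differed from the other genes in this was not tested. The fold enrichments of the FGFR3 peaks were low, and all 8 lay between 3.29 and 4.89. A pair of these FGFR3 peaks, at 19995 bp and 8661 bp upstream, held p63 sites with 2 mismatches. The second site ended just outside the 100 bp from the summit used for the counts. The −log10 q values of this pair were 5.98 and 2.64.

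FGFR4 (ENSG00000160867.15, chr5:177086905-177098144, plus strand) encodes a receptor known mainly from liver and muscle precursors and had 3 open regions in CTR and 4 in p63. At its canonical TSS both lists had a peak below the threshold within 1 kb, with a fold enrichment of 4.76 in CTR and 3.16 in p63, and these peaks did not overlap. The region with the highest −log10 q in both lists was shared and lay 15.1 kb upstream, chr5:177071515-177072216, with fold enrichments of 13.6 in CTR and 15.2 in p63. The p63-only region chr5:177098310-177098870 lay just past the end of the gene and 1450 bp from the TSS of a shorter transcript. It had a fold enrichment of 5.71, a −log10 q of 10.3, close to the threshold, and a pileup of 22 reads, and no CTR peak overlapped it. A KLF motif lay within 100 bp of its summit.

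**Figure D2:**
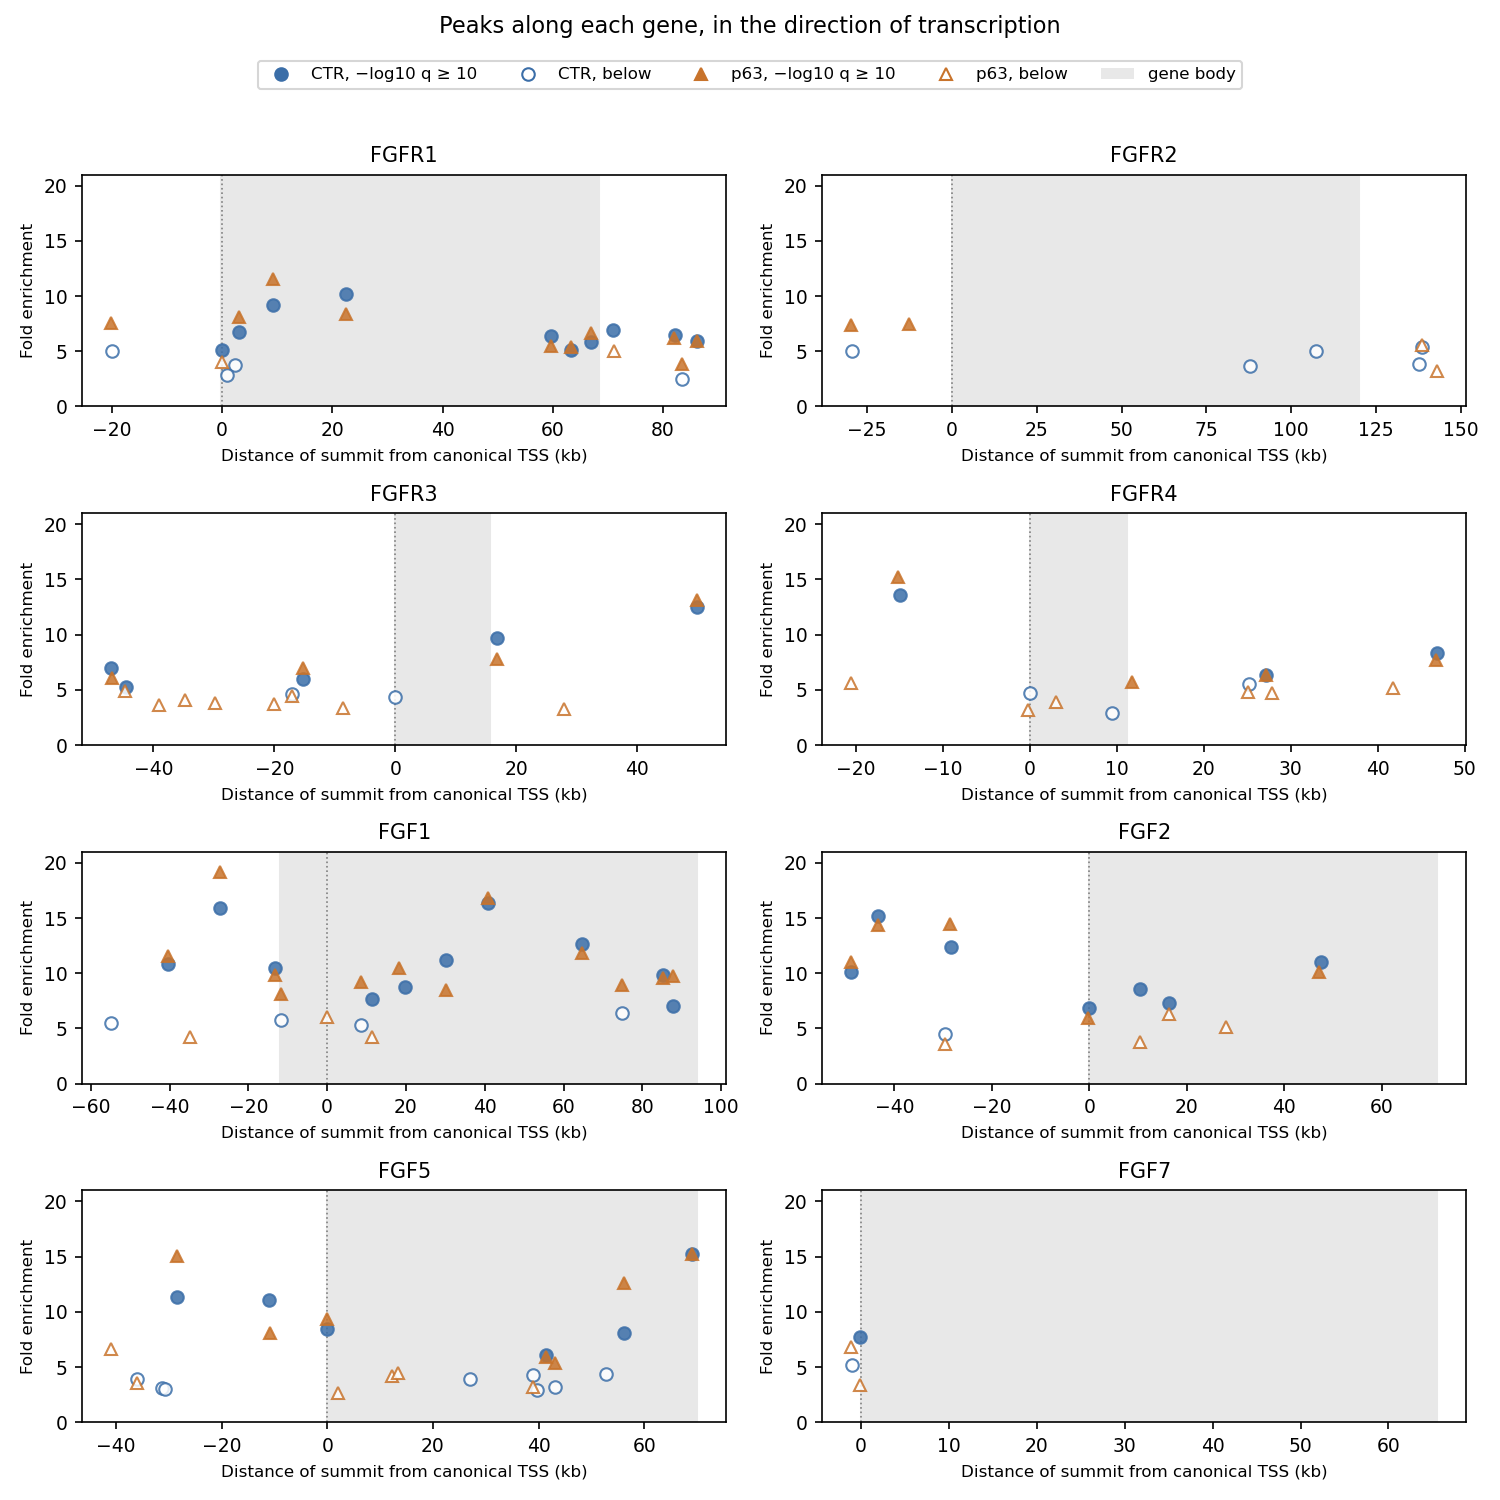
Fold enrichment (y axis) of each deposited peak against the distance of its summit from the canonical TSS (x axis, kb, positive in the direction of transcription) for the 8 genes with peaks. Circles are CTR peaks and triangles p63 peaks, filled from a −log10 q of 10 upwards and hollow below it, and grey bands are gene bodies. The 2 filled triangles of FGFR2 lie upstream of its gene body, and FGF1 has filled symbols through its whole gene body.

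FGF1 (ENSG00000113578.18, chr5:142592178-142698070, minus strand) encodes acidic FGF, a ligand of all FGF receptors, and had 12 open regions in p63, the most of the 9 genes, and 10 in CTR, as many as FGFR1. It held 4 of the 10 p63-only regions and 2 of the 8 CTR-only regions. All of their summits lay in the gene, and each was nearest to a TSS of FGF1. The p63-only region chr5:142667794-142668136 in intron 1 had no CTR peak, a fold enrichment of 10.5, a −log10 q of 23.03 and a pileup of 30 reads, the highest −log10 q among the p63-only regions of the 9 genes. Its window held none of the motifs searched. At a distance of 1212 bp lay the CTR-only region chr5:142666385-142666581, which had no p63 peak, a fold enrichment of 8.72, a −log10 q of 13.8 and a pileup of 18 reads, and held an AP-1 motif.

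Closer to the canonical TSS in intron 1 of FGF1, the CTR-only region chr5:142674419-142674859 (fold enrichment 7.68 in CTR and 4.21 in p63, pileups 24 and 13) was followed after 2445 bp by the p63-only region chr5:142677305-142677697. The latter had a fold enrichment of 9.24 in p63 and 5.34 in CTR, with pileups of 31 and 16 reads. Its pileup ratio of 1.94 had an interval of 1.03 to 3.79, the only interval above 1 among the overlapping peaks of the 9 genes. Many such intervals were taken with no correction for their number, and a few can leave out 1 by counting error alone. The region was also singled out by the same peak strengths that the interval compares. The interval is thus not evidence of a difference by itself. Regions of either kind were interleaved in this intron. The remaining p63-only regions were chr5:142611154-142611459 (fold enrichment 8.93 against 6.42) and chr5:142697419-142698141 (8.14 against 5.73, pileups 34 and 19), the latter 341 bp from the TSS of an upstream first exon. The canonical TSS of FGF1 had no CTR peak and a p63 peak below the threshold, with a fold enrichment of 6.07 at a −log10 q of 8.02.

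The strongest regions of FGF1 were much alike in both lists. At chr5:142644715-142645538, in intron 1, the fold enrichment was 16.4 in CTR and 16.8 in p63 and the pileup 125 and 121 reads, which placed it above 99.4% of CTR regions and 98.8% of p63 regions by −log10 q. At chr5:142712965-142713636, 27.3 kb upstream of the canonical TSS, it was 15.9 in CTR and 19.2 in p63. The open region nearest a TSS was shared and lay at chr5:142621184-142621726, with fold enrichments of 12.6 in CTR and 11.8 in p63.

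FGF2 (ENSG00000138685.18, chr4:122826682-122898236, plus strand) encodes basic FGF, which fibroblasts make and respond to, and had 7 open regions in CTR and 5 in p63. The 5 were all shared. Its promoter region, chr4:122826241-122828087, had a fold enrichment of 6.89 in CTR and 5.92 in p63. The highest −log10 q in CTR belonged to a region 43.4 kb upstream (57.4, fold enrichment 15.2 against 14.3 in p63), and in p63 to a region 28.5 kb upstream (58.8, fold enrichment 14.5 against 12.4 in CTR).

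Both CTR-only regions of FGF2 lay in intron 1. At chr4:122837073-122837676 the fold enrichment was 8.62 in CTR and 3.76 in p63 and the −log10 q 14.5 and 2.71. The pileups were 20 reads in CTR and 7 reads in p63, a ratio of 0.350 with an interval of 0.125 to 0.862, the lowest ratio of the 9 genes and the only interval below 1. The limits given for the FGF1 interval above 1 hold for this interval too. An AP-1 motif lay within 100 bp of its summit in both lists. At chr4:122843163-122843525 the values were close, with fold enrichments of 7.34 in CTR and 6.30 in p63 and pileups of 15 and 13 reads. The latter held a p63 site with 3 mismatches, which 0.503% of all CTR-only regions held.

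FGF5 (ENSG00000138675.17, chr4:80266639-80336680, plus strand) encodes a ligand known for ending the growth phase of hair and had 6 open regions in CTR, all shared, and 7 in p63. The promoter region, chr4:80265653-80267135, had a fold enrichment of 8.41 in CTR and 9.32 in p63 and the largest pileup at any canonical TSS of the 9 genes, 94 and 90 reads. A region 28.5 kb upstream had the highest −log10 q in the p63 list, 72.1, with fold enrichments of 11.3 in CTR and 15.0 in p63. In CTR the highest, 62.1, belonged to chr4:80335433-80336211, at the start of CFAP299, with fold enrichments of 15.3 in CTR and 15.2 in p63. The p63-only region chr4:80309497-80309848 had a fold enrichment of 5.39 against 3.19 in CTR and held an AP-1 motif.

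FGF7 (ENSG00000140285.12, chr15:49423237-49488775, plus strand) encodes keratinocyte growth factor, which fibroblasts release and keratinocytes sense. Its CTR-only region chr15:49422893-49423397 covered the canonical TSS, with its summit 84 bp upstream, a fold enrichment of 7.75, a −log10 q of 11.8 and a pileup of 17 reads. In the p63 list the peak at the same place had a fold enrichment of 3.36, a −log10 q of 2.16 and a pileup of 7 reads. The pileup ratio was 0.412 with an interval of 0.144 to 1.04. A second pair of peaks, 1.08 kb upstream, was below the threshold in both lists and higher in p63, with fold enrichments of 5.19 in CTR and 6.78 in p63 and −log10 q values of 5.68 and 9.49. The p63 peak of that pair was the closest of all peaks of the 9 genes below the threshold, and the FGFR4 region past the gene end, at 10.3, was the closest above it. The printed promoter of FGF7 held no p63, AP-1 or KLF match, which 0.914%, 4.20% and 17.6% of 35116 RefSeq promoter windows of the same length did.

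FGF10 (ENSG00000070193.5, chr5:44300247-44389706, minus strand), the mesenchymal ligand needed for limb and lung buds, had no deposited peak in its body or within 50 kb of a TSS in either list. The weakest deposited peaks of the lists had pileups of 6 reads, so weaker openness of this locus was not detectable at this depth.

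Compared at their canonical start sites by fold enrichment, the 9 genes showed no common direction. Within 1 kb of the TSS the fold enrichment was lower in p63 than in CTR at FGFR1, FGFR4, FGF2 and FGF7, and a peak was listed in CTR alone at FGFR3. It was higher in p63 at FGF5, and a peak was listed in p63 alone at FGF1. FGFR2 and FGF10 had no peak there in either list. The direction depended on the measure. Pileups in CTR and p63 were 41 and 30 reads at FGFR1, 16 and 8 at FGFR4 and 36 and 32 at FGF2. They were 94 and 90 at FGF5 and 17 and 7 at FGF7, so each was lower in p63. The FGFR4 peaks did not overlap, and for the others the intervals of the pileup ratios covered 1. Pileups were not scaled between the lists. With 1 list per group these differences have no replicate check, and the comparison at canonical start sites was chosen after the values were seen.

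**Figure D3:**
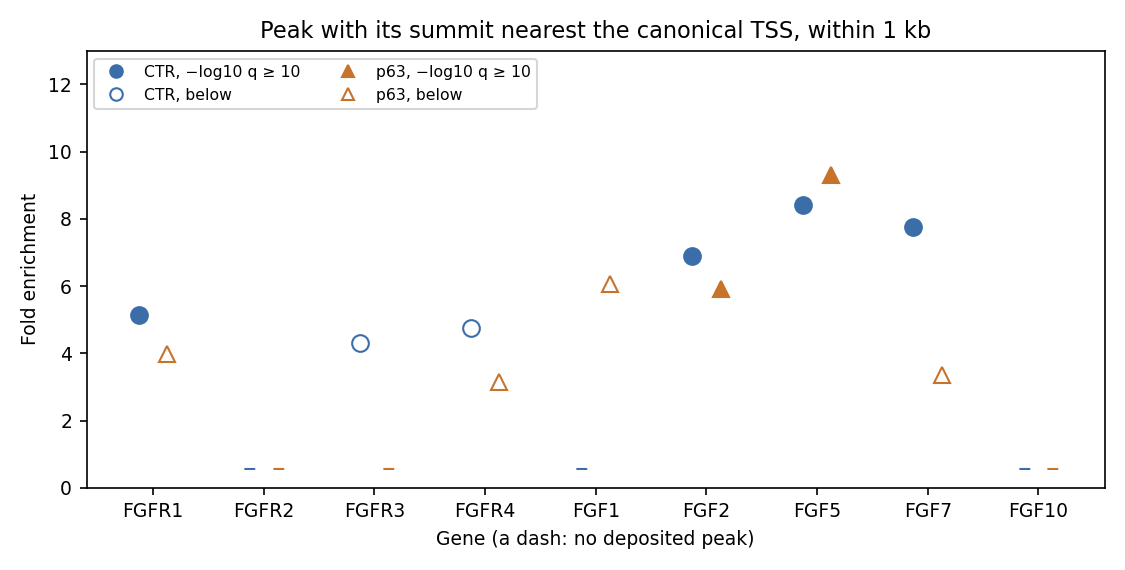
Fold enrichment (y axis) of the peak with its summit nearest the canonical TSS, within 1 kb, for each gene (x axis) in the CTR (circles) and p63 (triangles) lists. Filled symbols reach a −log10 q of 10, hollow symbols lie below it, and a dash marks no deposited peak. FGF2 and FGF5 are filled in both lists, and FGFR1 and FGF7 in CTR alone.

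The shared regions changed little between the lists. The 34 paired shared regions of the 9 genes had a median ratio of fold enrichment, p63 over CTR, of 1.003, with a range of 0.733 to 1.56, and 17 were above 1. Over all 47197 paired shared regions the median was 1.04, the central 90 percent lay between 0.757 and 1.42, and 58.0% were above 1. At least 1.5 times higher with p63 was 1 of the 34, against 3.06% of all, and none was at least 1.5 times lower, against 1.38% of all. The highest and the lowest ratio both belonged to FGF5. The highest, 1.56, was at chr4:80322705-80323212, 56.3 kb from the TSS and nearer to CFAP299, where the fold enrichment was 8.07 in CTR and 12.6 in p63 but the pileups of 21 and 27 reads gave a ratio of 1.29 with an interval of 0.700 to 2.39. The lowest, 0.733, was at chr4:80255350-80256156, 10.8 kb upstream, where the fold enrichment was 11.1 in CTR and 8.11 in p63 and the pileups were 38 and 23 reads, with a ratio of 0.605 and an interval of 0.344 to 1.04.

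**Figure D4:**
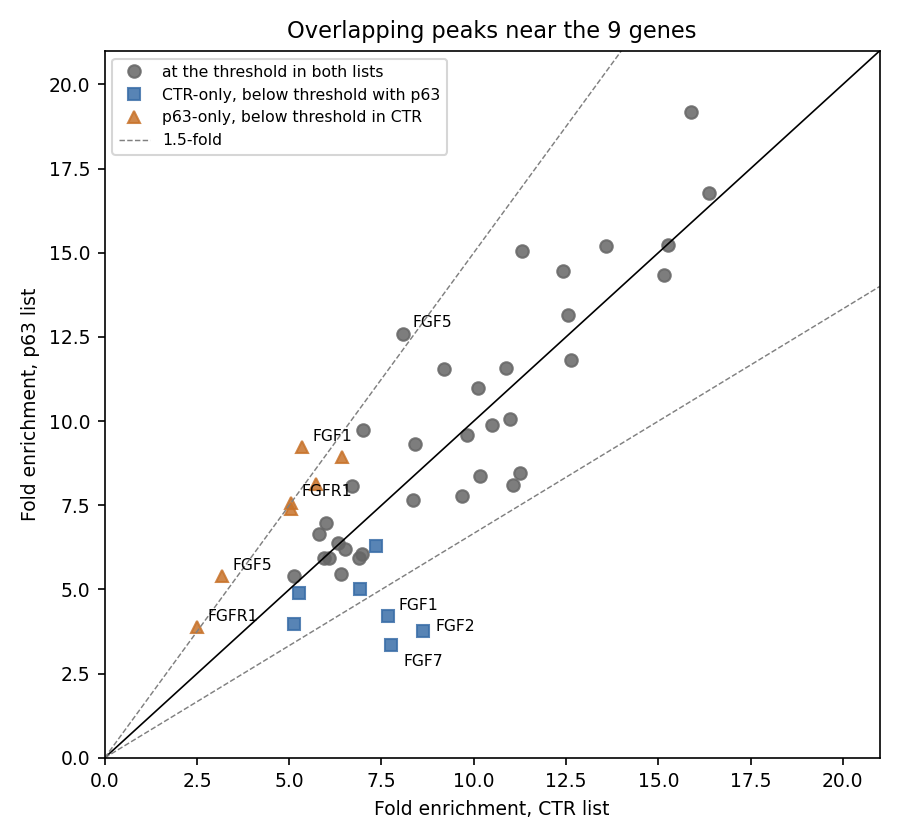
Fold enrichment in the p63 list (y axis) against the CTR list (x axis) for overlapping peaks of the 9 genes, with circles for the 34 pairs at the threshold in both lists, squares for CTR-only and triangles for p63-only regions with a weaker peak in the other list. The solid line marks equal values and dashed lines a 1.5-fold difference, and names mark pairs beyond it. Most circles lie between the dashed lines.

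Regions of 1 list were weaker than shared regions, near these genes as in the whole lists. The median −log10 q was 12.6 for the 10 p63-only regions and 26.8 for the 34 shared regions of the p63 list, and 14.2 for the 8 CTR-only regions against 26.2 for the shared regions of the CTR list. In the whole lists these medians were 14.5 and 27.6 for p63 and 12.6 and 26.4 for CTR. In the CTR list 21 of the 42 open regions were promoter regions, within 3 kb of any annotated TSS, and in the p63 list 20 of the 44, against 40.4% and 39.4% of all regions.

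The p63 sites of these genes are printed in the direction in which they were read on the plus strand, 5′ to 3′, with matching letters in capitals and mismatches in lower case. They are the best matches in the FGFR2 regions and in the FGFR3 peaks below the threshold, and the sites with at most 3 mismatches within 100 bp of the summits of FGF2 open regions. Another FGFR3 site with 3 mismatches, not printed, lay in the shared region 15.3 kb upstream but more than 100 bp from its summit. The same held for an FGFR1 site with 3 mismatches in the shared region at the start of LETM2. An FGF5 site with 3 mismatches lay in a p63 peak below the threshold. The first FGF2 site lies in a shared region. The printed sites were chosen after their values were seen, except those with at most 3 mismatches in the p63-only and CTR-only regions. The CTR-only FGF1 region chr5:142674419-142674859 also held a site with 4 mismatches within 100 bp of its summit, which is not printed.
FGFR2, 12.7 kb upstream, chr10:121611128-121611147: tGACTAGTCCGGGCAAGTCC
FGFR2, 29.6 kb upstream, chr10:121628056-121628075: GcACATGCCTtcACTTGCTa
FGFR3, 19995 bp upstream, chr4:1773358-1773377: AGGCAcGTTCGGGCTgGCTC
FGFR3, 8661 bp upstream, chr4:1784717-1784736: GAGCcTGCCCAGcCTTGCTC
FGF2, shared, 28.5 kb upstream, chr4:122798393-122798412: GGGCATGTCaGGACTTGCag
FGF2, CTR-only, intron 1, chr4:122843296-122843315: GGGCcAGgTCtGGCATGTTT

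The FGFR2 site with 1 mismatch was the only p63 site in the 10 p63-only regions (interval 1.79% to 40.4%), against 11.4% of all p63-only regions. In all open regions a site was found in 2 of 44 in p63 and 2 of 42 in CTR, against 3.78% and 0.932% in the whole lists. The site of the shared FGF2 region was counted in both lists, and the region had similar fold enrichment in them, 14.5 and 12.4. Among regions of 1 list, an AP-1 motif lay in 2 of the 10 p63-only regions (22.0% of all p63-only regions) and in 2 of the 8 CTR-only regions (26.1%). A KLF motif lay in 3 of the 10 p63-only regions, those of FGFR1, FGFR2 and FGFR4, against 4.07% of all p63-only regions, and in none of the 8 CTR-only regions, against 3.19%. The 3 of 10 had an interval of 10.8 to 60.3, but it was 1 of several motif shares taken on few regions, and no test was run. All 3 belonged to receptors, which held 5 of the 10 p63-only regions. Among all open regions a KLF motif lay in 6 of 44 in p63 and 1 of 42 in CTR, against 7.14% and 7.4% of all, and an AP-1 motif in 8 of 44 and 8 of 42, against 25.4% and 26.9%. Of the 6, 3 were shared regions, and in 2 of these, at FGFR3 and FGF2, the motif lay within 100 bp of the p63 summit but not of the CTR summit, which stood at another position of the same region. At the FGFR1 region the CTR peak below the threshold held the same motif. A TEAD motif (ACATTCCA, ACATTCCT, GCATTCCA or GCATTCCT) was found in 3 of 44 open regions in p63 and 4 of 42 in CTR, against 8.24% and 8.9% of all. A motif match is a description of the letters and not a bound site.

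The other 49 genes of a list of the FGF pathway had 297 open regions in the p63 list, of which 69 were p63-only (23.2%, interval 18.8 to 28.4), and 263 in the CTR list, of which 33 were CTR-only (12.5%, interval 9.08 to 17.1, against 16.5% of the whole list). A p63-only region was found near 30 of the 49 genes, against 58.2% of protein-coding genes, and a CTR-only region near 22, against 41.9%. By role, p63-only regions were 22 of 73 for the ligand carrier FGFBP1 and the heparan sulfate enzymes, 9 of 40 for other receptors and co-receptors, 14 of 61 for adaptors and effectors, 11 of 58 for other ligands, 7 of 20 for the target factors ETV1, ETV4 and ETV5 and 6 of 45 for the inhibitors of the pathway. The intervals of all these groups covered the 23.9% of the whole list. A p63 site lay in 8 of the 69, 11.6% (interval 5.99 to 21.2), against the 11.4% of all p63-only regions.

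**Figure D5:**
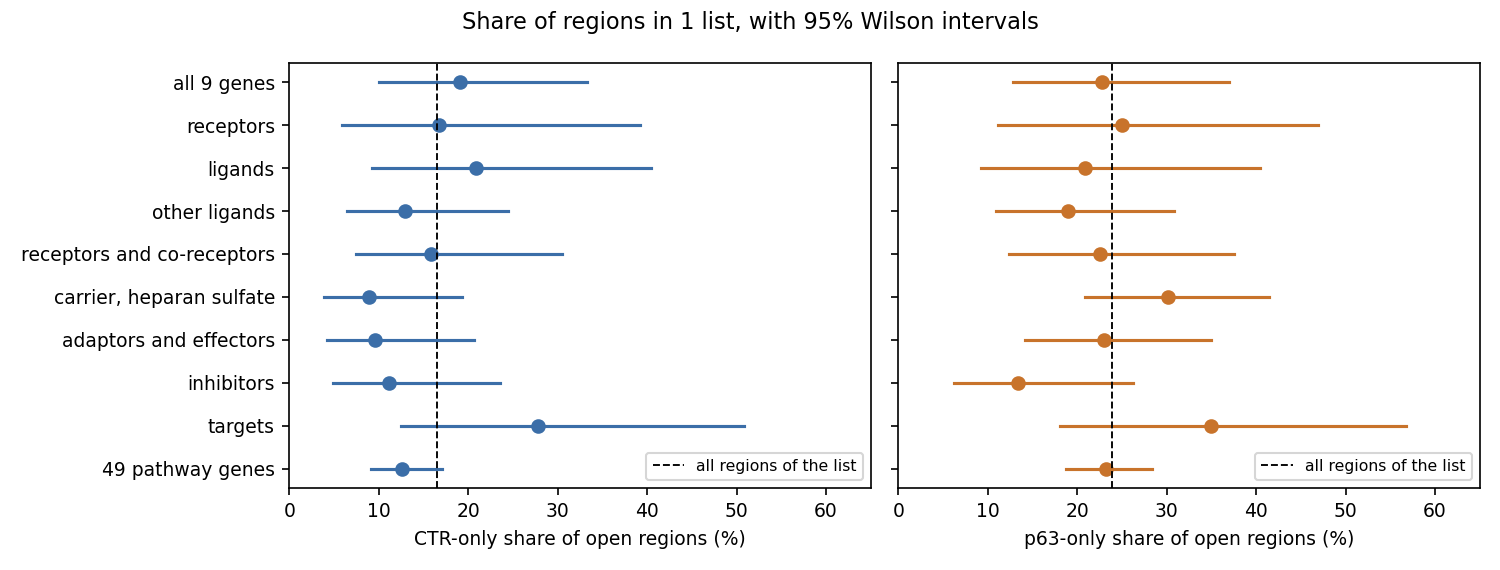
Share of open regions that were CTR-only (left) and p63-only (right) for the 9 genes, for their receptors and ligands, and for groups of the 49 other pathway genes, with 95% Wilson intervals (bars, counting error only). Dashed lines mark all regions of the list, 16.5% and 23.9%. Every p63 interval covers its line.

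Of all promoter regions, 15.8% in the p63 list were p63-only and 10.01% in the CTR list were CTR-only. The matching shares over all promoter regions of the pathway genes were not computed. The genes named here are thus a description, and no excess over the whole lists is claimed for them. Several components of the pathway had a region of 1 list within 3 kb of a TSS. In the p63 list these were at SOS1, the exchange factor that activates RAS (fold enrichment 10.9), PLCG1, a phospholipase bound by activated receptors (11.05), and FLRT2, a membrane protein that binds FGF receptors (9.86), all with no CTR peak. The share of all p63-only promoter regions with a p63 site was not computed. Among the 69 p63-only regions of the pathway genes at any location it was 11.6%, against 11.4% of all p63-only regions. Each of these 3 promoter regions held a p63 site, printed here with mismatches in lower case, and the other 6 of the 9 p63-only promoter regions of the pathway genes held none.
SOS1, 159 bp from a TSS, chr2:39068489-39068508: GGGCATGTCTcAtCAAGTTC
PLCG1, 2287 bp from a TSS, chr20:41182839-41182858: GGtCcTGCaTGAACTTGTCC
FLRT2, 2829 bp from a TSS, chr14:85556426-85556445: cAGCTTGCCTGGGCTTGaTC

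The adaptor GAB1 (10.3 against 5.43 in CTR), the heparan sulfate polymerase EXT1 (4.59, no CTR peak), the inhibitor SPRY2 (3.76 against 3.16) and the target factors ETV4 (4.72 and 4.94) and ETV5 (5.07), 3 regions with no CTR peak, also had p63-only promoter regions. CTR-only promoter regions were found at the adaptor GRB2 (8.37 in CTR against 5.45 in p63), the heparan sulfate proteoglycan GPC1 (6.63 against 3.98), FGFRL1 (4.86 against 3.48), FGF11 (5.78 against 4.07), EXT1 (7.19 against 4.57), SPRED1 (4.12 against 3.38), FLRT2 (3.41 against 3.24), ETV1 (11.5 against 6.58 and 4.63 against 3.81) and ETV4 (4.66 against 3.78). All of the CTR-only promoter regions overlapped a p63 peak below the threshold. ETV4, EXT1 and FLRT2 had promoter regions of both kinds.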

How the data were processed

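ATAC-seq was performed by the authors in 4 samples, 2 per group by their labels. Reads were mapped to hg38 with Bowtie2 2.3.4.3 and peaks were called with MACS2, whose version and options were not given in the sources used here, as were duplicate removal and the shift of reads for the transposase. The authors deposited 1 peak list per group, made from both replicates according to the study's methods. The peak names point to 1 alignment made from 2 inputs, and whether these were the replicates was not stated. Each deposited peak had a fold enrichment, a −log10 p, a −log10 q, an integer score that repeats the −log10 q and a summit position. The values were not scaled between the lists. No depth per sample was given, so the number of reads at the summit and the background were solved from the deposited fold enrichment and −log10 p, which succeeded within 0.001 for 99.98% of CTR peaks and 99.99% of p63 peaks.

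Overlaps (1 bp or more) were computed with numpy 2.4.6 and pandas 2.3.3, Wilson, exact Poisson and exact binomial intervals at 95% were computed with scipy 1.17.1, and figures were drawn with matplotlib 3.10.9. Overlaps, pileups and the site search were tested on simulated data. A pair was an open region of each list with the longest overlap. TSSs came from GENCODE release 44, and the canonical TSS is that of its canonical transcript. Coordinates are 1-based on GRCh38. Motifs were searched within 100 bp of summits. No test was run, since the lists hold no replicates.

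The regions named for each gene were the open region nearest a TSS within 3 kb, every CTR-only or p63-only region, the region with the highest −log10 q in each list, and the paired regions with the highest and lowest ratio over all 9 genes. Other shared regions of FGFR1 and FGFR3 were named after their values were seen. Pathway genes were named for a region of 1 list within 3 kb of a TSS. The genes, lists and rules were chosen with earlier results of these data known. The alternatives were other thresholds, gene windows, overlap rules, equal numbers of top-ranked peaks, and other site windows and mismatch limits. Peaks on other sequences (2558 CTR and 2808 p63) were left out.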

Additional observations from a re-analysis of the deposited data

How the results depend on the processing

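No paired analysis was possible because each group had 1 deposited list and no value per replicate, and for the same reason no replicate could be left out. Of the 58 recomputed values, 34 stayed near the value reported, among them the share of p63-only regions under each other threshold and gene window and with an overlap of 50%. Near is meant loosely, since that share ran from 17.6% with a window of 100 kb to 29.6% at a −log10 q of 20. The matching shares of the whole list were 23.9% and 24.6%, so it fell on either side of them. With all deposited peaks the counts were 70 in CTR and 77 in p63, with 14 CTR-only, 22 p63-only and 3 p63-only peaks with a p63 site. At a −log10 q of 20 they were 24, 27, 5 CTR-only and 0 with a site, since both FGFR2 regions then fell out. With a window of 100 kb there were 69 and 74 regions, and in gene bodies alone 22 and 20, with 5 CTR-only, 5 p63-only and 0 with a site, since the FGFR2 regions lie outside its body. Counting only regions absent from the other list left 1 CTR-only (2.38%) and 3 p63-only (6.82%). With equal numbers of top-ranked peaks 6 regions were p63-only and 8 CTR-only, against 20.7% of all regions in either list. With 4 mismatches allowed 2 p63-only regions held a site, and CTR-only regions were not recounted at that limit. No paired region was 2-fold higher with p63 (0), and 1 was at least 1.5 times lower when pileup over background replaced the fold enrichment. Depth limits the single regions. Among the regions of 1 list that overlapped a weaker peak of the other, the intervals of the pileup ratios covered 1 for all but 1 region of FGF1 and 1 of FGF2. The intervals were not corrected for their number, so such exceptions can arise by counting error alone. The 3 p63-only and 1 CTR-only regions absent from the other list had no ratio.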
